A study of Mus musculus with 6 samples.

Results

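Of 10 genes of metal binding and antioxidant defence, 8 had lower scaled counts in astrocyte-targeted, ribosome-bound RNA of diencephalon than of cortical grey matter. The decreases ran from 1.45-fold to 2.30-fold (edgeR adjusted p under 0.05). By the same test, 14.8% of all 10568 genes tested were lower and 29.6% differed in either direction. The lower genes were the metallothioneins Mt1 and Mt2, the glutathione transferases Gstm1 and Gstm5, the enzymes Prdx6, Sod1 and Cat, and Nfe2l2, which encodes the transcription factor NRF2. Nfe2l2 and Gstm5 differed most. Nfe2l2 stood at 80.3 ± 4.90 CPM (counts scaled to library size, mean ± SD, n = 3) in diencephalon and at 184 ± 31.1 CPM in cortex, and Gstm5 at 132 ± 17.9 and 301 ± 56.8 CPM. Gpx4 did not pass the test, and Mt3 had too few counts to be tested. Summed astrocyte markers were also lower in diencephalon, with a log2 difference of -0.58. Set against them, the regions overlapped for Mt2, Gstm1, Sod1 and Cat. On a scale per gene length (TPM), where the median log2 difference of all genes was 0.22, Mt2, Gstm1 and Cat did not pass. With the trend over gene length removed, Gstm1 and Cat passed and Mt2 did not. The 10 genes were taken by symbol, with earlier results of these data known, and are 10 of the 23955 genes in the deposited tables.

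Metallothioneins are small proteins rich in cysteine that bind zinc and copper. Glutathione transferases of the mu class join the thiol glutathione to reactive compounds, and superoxide dismutase, catalase, peroxiredoxins and glutathione peroxidases take superoxide and peroxides apart. NRF2 switches on many genes of this defence, while the metal-sensing factor MTF1 acts on metallothionein promoters. Astrocytes are known as a main store of glutathione and of metallothioneins in the brain.

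The libraries hold mRNA bound to tagged ribosomes from mice of strain C57BL/6 with the genotype Slc1a3 +/- GFP+ Rpl22HA fl/fl, aged 3 months and of both sexes. Both groups carry the same alleles: a tamoxifen-activated Cre recombinase expressed from the Slc1a3 locus, a floxed Rpl22 that gains a haemagglutinin tag after recombination, and a GFP reporter transgene. All mice received tamoxifen at 9 weeks. Groups differ only in the tissue: diencephalon without the area around the third ventricle, and cortical grey matter without meninges and white matter, with 3 libraries each and 3 mice pooled per library. The tag marks cells in which the Slc1a3 locus drove the recombinase when tamoxifen was given, along with any descendants. Markers of other cells were detected in the libraries too. Libraries of tagged cells are still bulk samples, in which fewer cells of a type and less RNA per cell cannot be told apart.

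Expected counts summed to between 1733145 and 2334237 per library. All 15 astrocyte markers were detected, with sums of 23056 to 26352 CPM in diencephalon and 32192 to 39784 CPM in cortical grey matter. Singly, 7 of the 15 were lower and 1 higher in diencephalon (edgeR adjusted p under 0.05), and the others did not pass. All CPM were scaled by TMM, which evens out library composition. Summed markers of other cells also differed. Those of meninges and fibroblasts ran from 845 to 1281 against 4567 to 8238 CPM, of neurons from 2730 to 3115 against 6973 to 8604 CPM, and of vessels from 95.4 to 126 against 163 to 295 CPM. Single neuron markers went both ways: of 12 tested, 5 were lower and 4 higher in diencephalon (edgeR adjusted p under 0.05). Oligodendrocyte markers were higher in diencephalon (1782 to 2396 against 827 to 1055 CPM), as were those of choroid plexus and ependyma (132 to 171 against 15.5 to 42.6 CPM). Microglial sums overlapped (328 to 581 against 463 to 1075 CPM). For the lists that did not overlap the exact two-sided permutation p was 0.1, the smallest that 3 against 3 libraries allow, and for microglia 0.2 (0.117 and 0.2 adjusted over 7 lists). No listed marker was at 0 in every library, and the part of these cells in the results on the 10 genes was not tested. The ribosomal transcript Rn45s took 3.52% to 4.48% of counts in diencephalon and 1.77% to 2.23% in cortex. Cortical replicate 3 stood apart: in chi-square over its degrees of freedom it scored 6.81 and 5.91 with its fellow cortical libraries, which scored 2.59 with each other. Of the cortical libraries it was the lowest for 8 of the 10 genes.

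Mt1 had 91.7, 71.7 and 72.6 CPM in diencephalon replicates 1 to 3 and 177, 187 and 114 CPM in cortical replicates 1 to 3. Every cortical library lay above every diencephalic one. Mt1 was 2.03-fold lower in diencephalon (95% interval 1.59 to 2.60, log2 difference -1.02 ± 0.17 SE, edgeR adjusted p = 0.000104). Mt2 had 266, 209.9 and 210.1 CPM in diencephalon and 379.6, 431 and 245 CPM in cortex. Here cortical replicate 3 fell below diencephalon replicate 1, so the regions overlapped. The Mt2 log2 difference was -0.62 ± 0.17 SE (edgeR adjusted p = 0.0123), and this call was lost without diencephalon replicate 2 (0.0551), diencephalon replicate 3 (0.0670) or cortical replicate 2 (0.0608), over a range of 1.07e-06 to 0.783 across alternatives. Mt3, a metallothionein made mainly in the brain, gave 3, 6 and 2 counts in diencephalon and 14, 6 and 1 counts in cortex. The summed counts gave a cortex to diencephalon ratio of 1.96 with an exact 95% interval of 0.905 to 4.51, which covers counting error only. With no count filter the log2 difference of Mt3 was -0.90 ± 0.70 SE (edgeR adjusted p = 0.421).

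**Figure D1:**
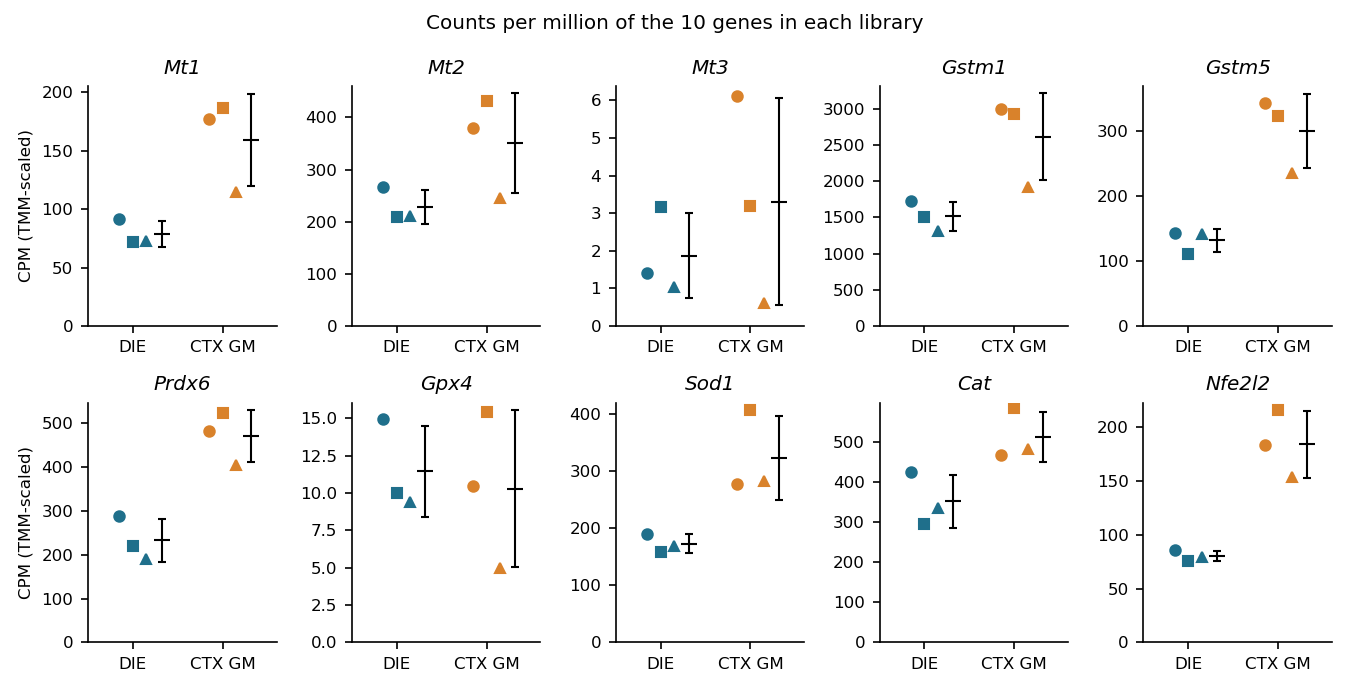
CPM (TMM-scaled, vertical axes from 0) of the 10 genes in diencephalon (DIE, blue) and cortical grey matter (CTX GM, orange). Circles, squares and triangles are replicates 1, 2 and 3, and black bars are mean ± SD of 3 libraries. The libraries of the regions are separate for 7 genes and overlap for Mt2, Mt3 and Gpx4.

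In the RefSeq annotation of GRCm38.p6, Mt3, Mt2 and Mt1 follow one another as neighbouring coding genes on chromosome 8, next to Mt4, which had no count in any library. The promoters of Mt1 and Mt2 are shown because these neighbours were both lower in diencephalon, at log2 differences of -1.02 and -0.62. The stretches come from RefSeq tables of GRCm38.p6, not from the build of the count tables, and run from 250 bases before the annotated start to 30 bases after it. Capitals mark the core of the metal response element, searched as TGCACNC and TGCGCNC on both strands.
Mt1 (chr8:94178839-94179118, strand +): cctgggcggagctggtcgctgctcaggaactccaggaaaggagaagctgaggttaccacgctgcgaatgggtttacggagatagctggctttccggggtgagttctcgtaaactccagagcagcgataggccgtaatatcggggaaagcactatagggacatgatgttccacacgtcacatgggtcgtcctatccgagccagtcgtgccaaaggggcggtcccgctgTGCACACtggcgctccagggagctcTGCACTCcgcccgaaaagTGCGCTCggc
Mt2 (chr8:94172368-94172647, strand +): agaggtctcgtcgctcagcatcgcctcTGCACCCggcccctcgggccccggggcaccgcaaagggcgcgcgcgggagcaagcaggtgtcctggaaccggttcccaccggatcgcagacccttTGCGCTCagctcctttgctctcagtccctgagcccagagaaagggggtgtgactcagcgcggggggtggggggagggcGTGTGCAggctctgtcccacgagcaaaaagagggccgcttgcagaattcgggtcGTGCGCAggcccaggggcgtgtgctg
In the full windows of 250 bases before to 50 after the start, Mt1 held 3 matches and Mt2 4. The window of Mt3 held 1 match. Of 32851 windows of this length in the table, 25.7% held at least 1 match and 0.517% held 4 or more. The matches are letters only, and binding was not measured.

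Mt2 exceeded Mt1 by more in each diencephalic library than in any cortical one. Both genes have nearly the same length in the tables, 542 and 556 bases, and their ratio within a library does not depend on library scaling. On the TPM scale, which divides transcript estimates by length, Mt2 exceeded Mt1 by 2.79, 2.82 and 2.78 times in the diencephalic libraries. In the cortical libraries it did so by 2.06, 2.22 and 2.06 times. As a share of the counts of both genes, Mt1 took 25.7%, 25.5% and 25.7% in diencephalon, with exact 95% intervals spanning 21.8% to 29.6%. In cortex Mt1 took 31.8%, 30.3% and 31.8%, with intervals spanning 27.6% to 35.8%. Cortical and diencephalic libraries were separate, though these intervals overlapped. The exact two-sided permutation p was 0.1, the smallest this design allows, or 0.15 adjusted over 3 ratios. Among single genes, 42.6% of all tested were without overlap in CPM. The share of gene pairs with separate ratios is not given here, so no contrast with it is drawn. Mt1 exceeded Mt3 by 22.4 to 181.9 times on the TPM scale, with overlapping regions (exact permutation p = 0.6, adjusted 0.6). These values rest on 1 to 14 counts of Mt3 per library, and the highest on 1 count in cortical replicate 3.

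**Figure D2:**
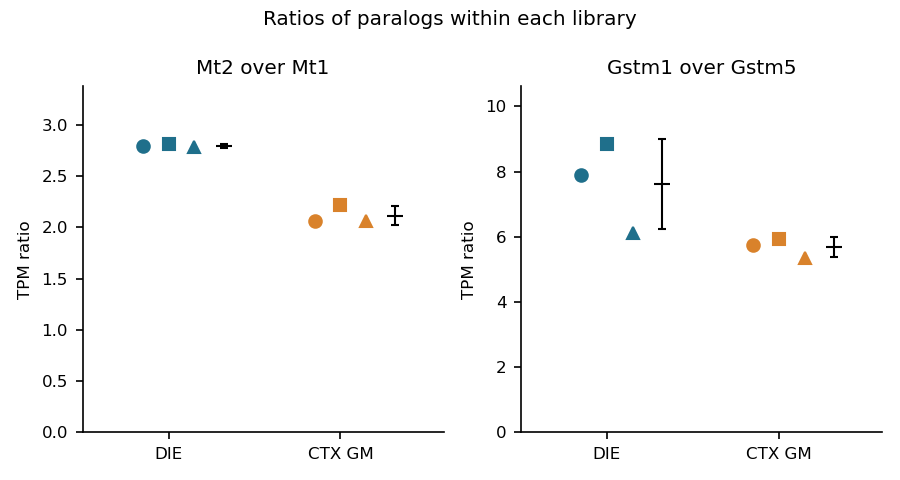
TPM ratio of Mt2 over Mt1 (left) and of Gstm1 over Gstm5 (right) in each library, with vertical axes from 0. Circles, squares and triangles are replicates 1, 2 and 3, and bars are mean ± SD of 3 libraries. The Mt2 over Mt1 ratios lie at 2.78 to 2.82 in diencephalon and at 2.06 to 2.22 in cortical grey matter.

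Gstm1, a glutathione transferase abundant in astrocytes, had the most counts of the 10 genes, between 49.9% and 56.6% of their sum in each library. It had 1724, 1507 and 1319 CPM in diencephalon and 3006, 2925 and 1921 CPM in cortex. The regions did not overlap, and Gstm1 was 1.73-fold lower in diencephalon (95% interval 1.36 to 2.19, edgeR adjusted p = 0.000990). On the TPM scale its libraries overlapped and it did not pass in any of 3 settings (limma adjusted p up to 0.181, range over alternatives 2.80e-08 to 0.181). Gstm5, from the same gene cluster on chromosome 3, had 143, 111 and 141 CPM against 343, 323 and 236 CPM. Its regions were separate as well, with a 2.28-fold lower level in diencephalon (1.84 to 2.83, edgeR adjusted p = 2.31e-06). Gstm1 exceeded Gstm5 by 7.90, 8.86 and 6.12 times in TPM in the diencephalic libraries and by 5.76, 5.95 and 5.34 times in the cortical ones, without overlap (exact permutation p = 0.1, adjusted 0.15). Gstm1 and Gstm5 were the only ones of the 10 genes with expected counts that were not whole in some libraries. RSEM can share reads between similar transcripts. For Gstm1 these counts were 3685.99, 6889.98 and 5494.99, in libraries where Gstm3 had 1.01, 1.02 and 1.01. For Gstm5 they were 305.74, 269.89, 785.95 and 605.74, while Gstm2, Gstm4, Gstm6 and Gstm7 had whole counts in every library. Which reads were shared was not traced.

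Prdx6, a peroxiredoxin that reduces peroxides of phospholipids, had 287, 219 and 191 CPM in diencephalon and 481, 522 and 405 CPM in cortex. The regions were separate, and Prdx6 was 2.02-fold lower in diencephalon (1.63 to 2.50, edgeR adjusted p = 1.58e-05). Cat encodes catalase, the peroxisomal enzyme that breaks down hydrogen peroxide. It had 426, 297 and 335 CPM against 469, 585 and 484 CPM. The gap between the highest diencephalic and the lowest cortical library was small, and Cat was 1.45-fold lower in diencephalon (1.19 to 1.78, edgeR adjusted p = 0.00577). It stayed lower in every alternative, with log2 differences of -0.70 to -0.34, but did not pass without diencephalon replicate 2 (0.0586) or on the TPM scale (range over alternatives 0.000409 to 0.162). Gpx4, the glutathione peroxidase that protects membrane lipids, stood apart from the others. It had 14.97, 10.02 and 9.41 CPM in diencephalon and 10.5, 15.4 and 4.97 CPM in cortex, with full overlap. Its log2 difference was 0.14 (95% interval -0.62 to 0.91, edgeR adjusted p = 0.807), and the sign turned without diencephalon replicate 1 (-0.11) or cortical replicate 3 (-0.16). That interval holds both a decrease like that of Cat and an increase, so at 8 to 32 counts per library a difference of that size was not detectable.

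Sod1, the cytosolic superoxide dismutase that carries copper and zinc, had 190.4, 159 and 169 CPM in diencephalon and 278, 407 and 283 CPM in cortex. Without overlap, it was 1.86-fold lower in diencephalon (1.51 to 2.30, edgeR adjusted p = 6.80e-05). Nfe2l2 had 85.6, 75.9 and 79.4 CPM against 183, 216 and 154 CPM. Its diencephalic libraries lay closest together among the 10 genes relative to their mean, and the gene was 2.30-fold lower there (1.87 to 2.83, edgeR adjusted p = 1.39e-06). The 8 lower genes had at least 136 counts in every library, so none passed the count filter through 1 region alone.

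Of all 10568 genes tested, 14.8% were lower in diencephalon at an edgeR adjusted p under 0.05, and 14.9% were higher. Of the 10 genes, 9 were tested, and 8 were lower and 0 higher. The CPM of the regions were without overlap for 42.6% of all tested genes, and without overlap and lower in diencephalon for 20.8%, against 7 of the 9. The median log2 difference was -0.90 over the 9 genes and 0.01 over all tested genes. The astrocyte marker sum itself had a log2 difference of -0.58, or -0.39 without Slc1a2, its most abundant gene. The log2 differences of 7 genes lay below -0.58 and those of Cat and Gpx4 above it. Cat, at -0.54, lay below -0.39, so its place depends on Slc1a2. The marker sum used next includes Slc1a2. Set against 1000 CPM of astrocyte markers, Nfe2l2 stood at 3.19 to 3.45 CPM in diencephalon and 4.61 to 5.79 in cortex, Gstm5 at 4.68 to 6.12 and 7.33 to 8.64, and Prdx6 at 8.27 to 10.9 and 12.1 to 14.0. Mt1 was separate as well, at 3.02 to 3.48 and 3.55 to 5.01. On the same footing the regions overlapped for the other lower genes: Cat stood at 12.5 to 16.2 and 11.8 to 15.7, Mt2 at 8.83 to 10.1 and 7.602 to 11.5, Gstm1 at 57.2 to 65.4 and 59.7 to 78.4, and Sod1 at 6.68 to 7.34 and 6.99 to 10.9. The share of all tested genes that were separate on this footing is not given here, so no contrast with it is drawn.

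The decreases have to be read beside gene length, because short genes as a whole were lower in diencephalon. Among 165 tested genes shorter than 700 bases, 33.9% were lower and 0.606% higher, with a median log2 difference of -0.62. Mt1, Mt2 and Sod1 belong to this class, and Mt2 was its median gene. Among 2242 genes of 1500 to 2500 bases, the class of Prdx6 and Nfe2l2, 14.7% were lower and the median was -0.09. Among 3382 genes of 2500 to 4000 bases, the class of Cat, 13.2% were lower and the median was 0.05.

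**Figure D3:**
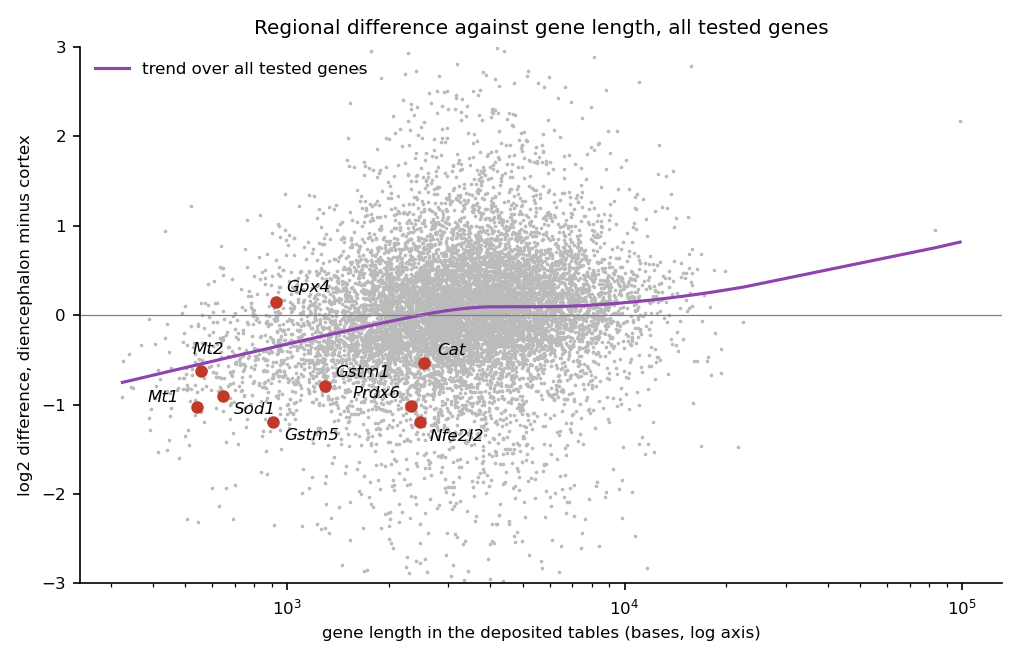
Log2 difference between diencephalon and cortical grey matter against gene length (log axis, bases) for all tested genes in grey, with a spline trend in purple and 9 of the 10 genes in red. The vertical axis stops at 3 on either side, which leaves out 111 genes. Mt2 lies close to the trend, while Nfe2l2, Prdx6 and Gstm5 lie below it.

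With that trend removed, the log2 difference of Mt2 was -0.08 ± 0.17 SE (edgeR adjusted p = 0.783, range over alternatives 1.07e-06 to 0.783). Mt1 and Sod1 kept a smaller decrease, of -0.47 (0.0460, range 1.80e-10 to 0.0460) and -0.41 (0.0397, range 6.69e-10 to 0.0397). Nfe2l2 and Prdx6, whose length puts them near the middle of the trend, stood at -1.20 and -0.99, and Gstm5 at -0.83. In that setting 7 of the 9 tested genes were lower and 0 higher, where 15% of all tested genes were lower and 12.8% higher. On the deposited TPM scale 5 genes passed as lower with limma on log2(TPM + 1): Mt1, Gstm5, Prdx6, Sod1 and Nfe2l2, where 6.61% of 14296 tested genes were lower and 14.7% higher. On that scale the median of all genes lay at 0.22. Mt2, Gstm1 and Cat did not pass, at log2 differences of -0.37, -0.56 and -0.34 (limma adjusted p = 0.256, 0.102 and 0.135), or -0.59, -0.78 and -0.56 relative to the median of all genes.

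**Figure D4:**
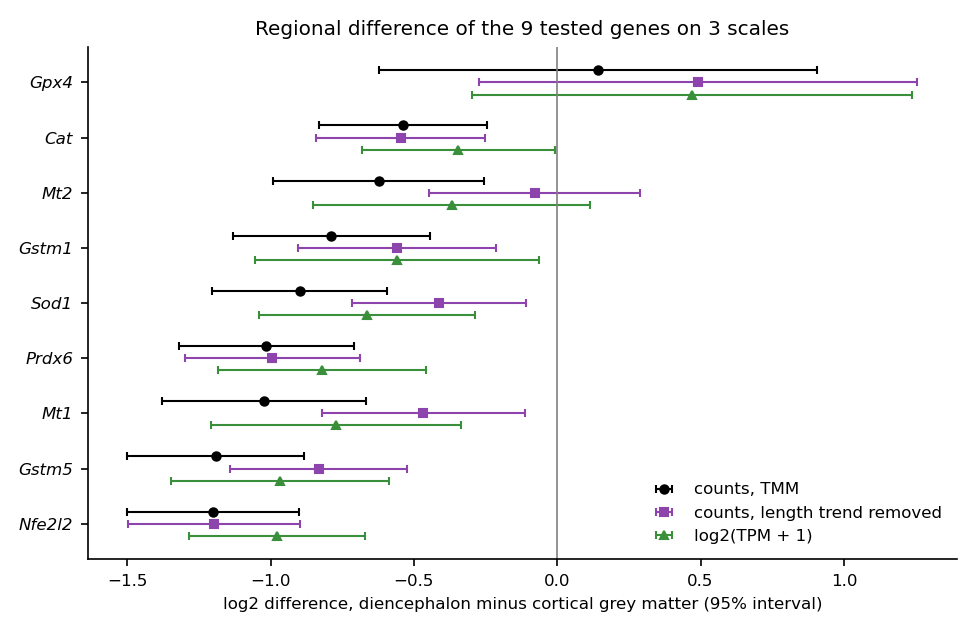
Log2 difference between diencephalon and cortical grey matter with its 95% interval for the 9 tested genes, from counts scaled by TMM (black circles), from counts with the length trend removed (purple squares) and from log2(TPM + 1) (green triangles). The unadjusted intervals of 7 genes lie below 0 on every scale. That of Mt2 crosses 0 with the length trend removed and on TPM, and that of Gpx4 crosses 0 on every scale.

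Levels of different genes can be compared per length, by TPM. Gstm1 was the highest in both regions, at 4972 ± 598 TPM in diencephalon and 7430 ± 1686 TPM in cortical grey matter. In diencephalon Mt2 (2240.3 ± 275 TPM), Sod1 (1358 ± 105), Mt1 (801 ± 100.3) and Gstm5 (660.2 ± 84.1) followed, each separate from its neighbour. Next came Cat (541 ± 93.8) and Prdx6 (393 ± 77.5), where neighbours overlapped from Gstm5 to Prdx6. Nfe2l2 (128 ± 6.12), Gpx4 (56.6 ± 16.0) and Mt3 (19.4 ± 11.96) were the lowest. In cortex the order was the same except that Prdx6 (689 ± 78.8) and Cat (683 ± 70.2), which overlapped, changed places. The cortical values overlapped also between Mt2 (2954 ± 779.5) and Sod1 (2176 ± 456), between Mt1 (1392 ± 335) and Gstm5 (1300.2 ± 243), and between Gpx4 (42.7 ± 19.4) and Mt3 (29.3 ± 24.6). Together the 10 genes made up 1.03% to 1.26% of TPM in diencephalon and 1.30% to 1.93% in cortex.

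Promoters of Gstm5 and Nfe2l2 are shown because these genes had the widest decreases. Capitals mark the core of the antioxidant response element, the DNA motif bound by NRF2, searched as TGACNNNGC on both strands of the RefSeq windows of GRCm38.p6.
Gstm5 (chr3:107895604-107895883, strand +): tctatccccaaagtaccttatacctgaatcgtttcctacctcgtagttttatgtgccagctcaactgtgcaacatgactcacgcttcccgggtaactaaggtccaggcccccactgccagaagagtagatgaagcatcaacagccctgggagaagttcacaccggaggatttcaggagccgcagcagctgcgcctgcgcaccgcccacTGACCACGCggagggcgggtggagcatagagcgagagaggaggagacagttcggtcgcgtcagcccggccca
Nfe2l2 (chr2:75704634-75704913, strand -): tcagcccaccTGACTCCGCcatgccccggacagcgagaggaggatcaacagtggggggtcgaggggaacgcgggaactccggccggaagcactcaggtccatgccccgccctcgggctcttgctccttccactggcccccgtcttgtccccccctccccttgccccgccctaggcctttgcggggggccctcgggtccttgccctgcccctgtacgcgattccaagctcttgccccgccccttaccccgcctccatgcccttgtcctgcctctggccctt
Gstm5 and Gstm1 also held 1 metal response core. For the antioxidant core, the full windows of Mt2, Gstm5, Sod1 and Nfe2l2 held 1 match each, and those of the other matched genes held none. Of all 32851 windows, 12.4% held at least 1 match. The table held windows for 9 of the 10 genes, the one without being Prdx6.

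Other genes of glutathione, peroxide and metal handling moved in both directions. Of 91 such genes in 6 lists, 67 had enough counts to test, and 5 were lower and 8 higher in diencephalon, or 19.4% against 29.6% of all tested genes called in either direction. Their median log2 difference was -0.10. Without cortical replicate 3 the lower genes numbered 12, of 71 tested. The higher ones numbered 4 with DESeq2 and without diencephalon replicate 3, and 5 without diencephalon replicate 1, diencephalon replicate 2 or cortical replicate 1. The shares of all tested genes called in these alternative fits are not given here, so no contrast with them is drawn.

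**Figure D5:**
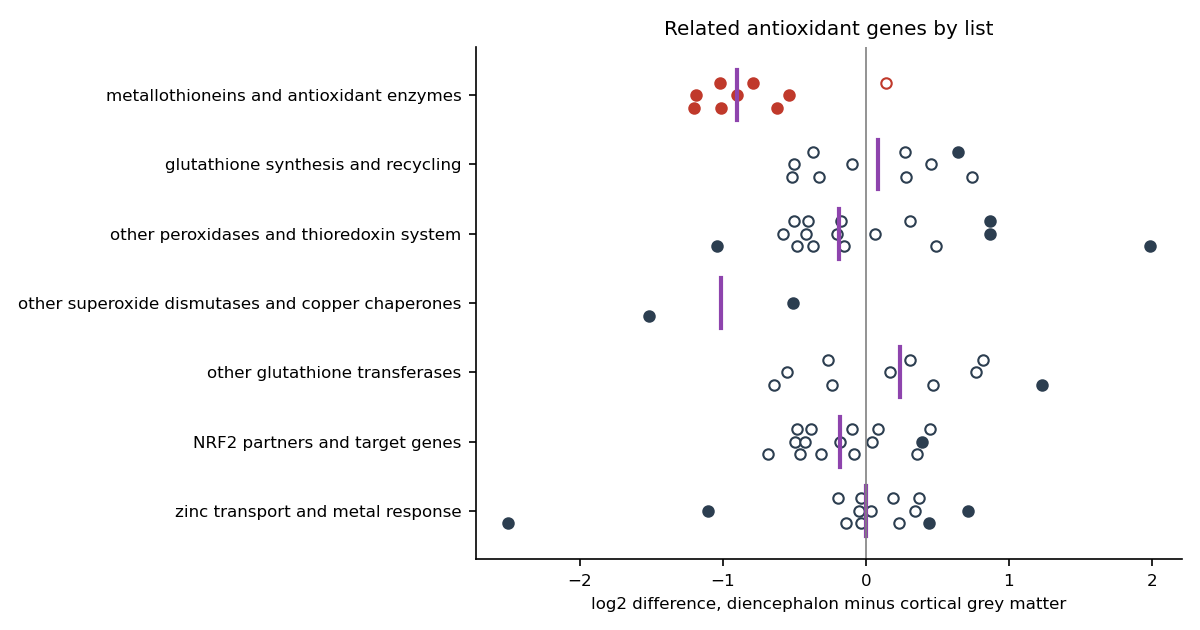
Log2 difference between diencephalon and cortical grey matter for tested genes, with 1 row per list. Filled points passed at an edgeR adjusted p under 0.05, open points did not, and purple bars are list medians. The filled points of the related lists fall on both sides of 0.

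Enzymes near to those above were split. Of 2 tested superoxide dismutases and copper chaperones, both fell, where 14.8% of all tested genes were lower. Sod3, the secreted superoxide dismutase, was at 13.6 ± 4.19 CPM in diencephalon and 39.4 ± 5.86 in cortex (log2 difference -1.52, edgeR adjusted p = 6.29e-05). Sod2, the mitochondrial one, was at 68.3 ± 13.8 against 97.8 ± 2.90 CPM (-0.51, edgeR adjusted p = 0.0174), a call lost without diencephalon replicate 2 or 3, without cortical replicate 2 and on the TPM scale (range over alternatives 0.00395 to 0.178). Of 16 other peroxidases and thioredoxin genes, 1 fell and 3 rose, or 25% called in either direction, near the 29.6% of all tested genes. Prdx1, a cytosolic peroxiredoxin, fell from 189.8 ± 37.6 to 92.2 ± 17.7 CPM, with a log2 difference of -1.04 (edgeR adjusted p = 4.28e-05). Txnrd1, which reduces thioredoxin, was at 55.7 ± 5.75 against 30.6 ± 2.00 CPM, and the glutathione peroxidase genes Gpx3 and Gpx1 rose from 2.99 ± 1.87 to 12.5 ± 4.87 CPM and from 12.3 ± 3.09 to 22.2 ± 4.30 CPM. The Gpx1 call (edgeR adjusted p = 0.0241) was lost with DESeq2 and without diencephalon replicate 2, diencephalon replicate 3 or cortical replicate 1 (range over alternatives 0.00316 to 0.134). With 11, 2 and 5 counts in cortex, Gpx3 passed the count filter only through diencephalon, where it was high, which limits this call. Gpx3 moved in libraries in which the choroid plexus and ependymal sum was also higher, by 5.10-fold or 2.81-fold without Ttr. The part of that sum in the result was not tested.

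Of 10 tested genes of glutathione synthesis and recycling, 1 passed in either direction, against 29.6% of all tested genes. It was higher in diencephalon, the exporter gene Abcc1, which rose from 29.1 ± 4.16 to 45.7 ± 4.14 CPM (edgeR adjusted p = 0.0164, and 0.0700 without diencephalon replicate 1, range over alternatives 0.0128 to 0.0700). The cystine transporter gene Slc7a11 had a log2 difference of -0.37 (adjusted p = 0.138) and Gclm, the modifier subunit of the enzyme that limits glutathione synthesis, -0.50 (0.0952). Without cortical replicate 3 both passed as lower (0.00101 and 0.0189, ranges over alternatives 0.00101 to 0.670 and 0.0189 to 0.434), and Slc7a11 passed also with no count filter and with the length trend removed. Oplah stood at -0.52 (0.123), and passed without diencephalon replicate 1 (0.0423, range 0.0423 to 0.412). Of 10 other glutathione transferases 1 rose, Gstt3, of the theta class, from 15.9 ± 0.520 to 37.4 ± 9.14 CPM (log2 difference 1.23, edgeR adjusted p = 0.000406). Gstp1, Gstk1 and Mgst3 stood at -0.55, -0.64 and 0.77 (adjusted p = 0.0701, 0.121 and 0.178). Gstk1 passed as lower without diencephalon replicate 1 or cortical replicate 3 (0.0198 and 0.0435, range 0.0198 to 0.524). Mgst3 passed as higher on the TPM scale and with the length trend removed (range 0.0152 to 0.412).

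Of 15 tested genes in the list of NRF2 partners and targets, 0 passed as lower and 1 rose, Me1, the cytosolic malic enzyme, from 102 ± 13.1 to 134 ± 16.8 CPM (log2 difference 0.40, edgeR adjusted p = 0.0411). The list holds no gene of the other lists or of the main set, where NRF2 also has targets. Its counts therefore do not cover all NRF2 targets. The Me1 call was lost with DESeq2, with the length trend removed, and without any 1 of the libraries other than cortical replicate 2 (range over alternatives 0.0162 to 0.197). Of all tested genes, 14.8% were lower and 14.9% higher. At an unadjusted edgeR p under 0.05 the list held 3 of its 15 tested genes, Me1, Fth1 and Mafg, against 4167 of all 10568. Hmox1, which encodes the haem-degrading enzyme induced by stress, stood at -0.68 (adjusted p = 0.156), Fth1, the ferritin heavy chain, at -0.43 (0.0744) and Mafg, a partner of NRF2 on DNA, at 0.45 (0.0884). Fth1 passed as lower with no count filter and without diencephalon replicate 2 or cortical replicate 2 (range 0.0138 to 0.771), and Mafg passed as higher on the TPM scale and with the length trend removed (range 0.00779 to 0.240). Of 14 zinc transporters and related genes, 2 fell and 2 rose. Slc39a10, a zinc importer of the cell membrane, was at 84.5 ± 10.4 against 182 ± 19.9 CPM (-1.11, edgeR adjusted p = 2.95e-06). Slc30a3, the zinc transporter of synaptic vesicles, was at 4.38 ± 1.86 against 24.8 ± 10.2 CPM (-2.50, edgeR adjusted p = 2.66e-05). With 9, 12 and 5 counts in diencephalon, Slc30a3 passed the count filter only through cortex, where it was high, which limits this call. The summed neuron markers were also lower in diencephalon, by 2.63-fold or 1.42-fold without Camk2a. Of the 12 tested neuron markers, 5 passed as lower and 4 as higher, and their part in the result was not tested. Slc39a14 and Slc30a7 rose with log2 differences of 0.71 and 0.44 (edgeR adjusted p = 0.0299 and 0.0301), and both calls were lost with DESeq2, with the length trend removed, and without diencephalon replicate 3, cortical replicate 1 or cortical replicate 2. That of Slc39a14 was lost also without diencephalon replicate 2 and in 2 TPM settings, and that of Slc30a7 without diencephalon replicate 1 (ranges 0.0189 to 0.190 and 0.0220 to 0.129).

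The genes whose CPM followed the mean log2 level of Mt1 and Mt2 most closely over the 6 libraries were Aplp2, Ncstn, Fam107b, Sfr1 and Pter, with Pearson r of 0.992 to 0.998. Among the other genes of the set, r was 0.985 for Gstm1, 0.878 to 0.941 for Cat, Sod1, Nfe2l2, Gstm5 and Prdx6, and 0.324 for Gpx4. The points share their libraries and their regional difference, and these values are a description.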

How the data were processed

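Each library was made from ribosome-bound RNA that was amplified with the Ovation system and sequenced on an Ion Proton instrument, per the labels' protocols. RSEM and mm9 are named by the authors, per the submitters' processing notes. Versions, alignment and strandedness were not given in the sources used here, so reads of overlapping or antisense genes cannot be told apart. The deposited expected counts are RSEM estimates, rounded here to whole numbers. The deposited TPM values stand beside an effective length, per the file headers. The deposited FPKM values were not used further, and the deposited gene lengths (in bases) served for the length trend only.

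The 10 genes and all lists were chosen with earlier results of these data known. Of 23955 genes, 10568 passed filterByExpr (minimum count 10). After TMM scaling, edgeR 4.0.16 fitted the robust quasi-likelihood model under R 4.3.3, the region being its single term, with Benjamini-Hochberg adjustment over all tested genes. SE and intervals follow from the F statistic. Differences are diencephalon minus cortical grey matter. A gene without a count could still have reached 1.31 to 1.86 CPM, the value of 3 counts. The labels name no molecular identifiers for these amplified libraries, so the intervals of count shares and of the Mt3 ratio cover counting error only. The labels describe each replicate as a pool of 3 mice, and p-values measure the spread between these pools. Whether same-numbered libraries of the regions share mice is not stated. Ratios and marker sums were compared by exact permutation with scipy 1.17.1.

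Named genes were all 10, up to 4 of each related list with the smallest adjusted p, all called genes of a list with 5 or fewer, and the 5 genes most correlated with Mt1 and Mt2. Alternatives were RLE factors, leaving out Rn45s, no filter, a stricter minimum of 30 counts, DESeq2 1.42.0, limma 3.58.1 with voom, a replicate block, limma-trend on log2(TPM + 1), with and without a floor of 1 on the mean TPM, or on log2(TPM + 0.1), an offset removing the length trend (natural spline, 5 degrees of freedom), and leaving out each library. For ratios, counts without length scaling were tried. For marker sums, TPM and leaving out the top marker were tried. The fits were tested on simulated counts.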

Additional observations from a re-analysis of the deposited data

How the results depend on the processing

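The number of the 10 genes lower in diencephalon was 8, and 5 in each of the 3 TPM settings; leaving out a library gave 6 to 8. In none of the 17 alternatives was any of them higher. With the replicate block 8 were lower, and the same-numbered libraries did not deviate together (correlations of 0.06, -0.10 and 0.003), so the numbers were not taken as pairs. Related genes numbered 9 lower without a count filter and 4 to 12 when a library was left out. They numbered 4 higher with DESeq2 and 4 to 7 when a library was left out. The shares of all tested genes called in these fits are not given here, and the cause was not tested. Gpx4 turned from 0.14 to -0.11 without diencephalon replicate 1 and to -0.16 without cortical replicate 3, and reached 0.52 without cortical replicate 2. The log2 ratio of Mt3 to Mt1 differed by 0.53, and by -0.19 without cortical replicate 3 to 1.15 without cortical replicate 1. Of 155 re-computed differences of the 10 genes, 139 kept direction and side of the threshold, 14 lost their call and 2 changed sign. For the named related genes 319 of 370 did so, 32 lost a call and 19 gained one. The replicate block changed 1 call among the named genes, that of Fth1, which passed as lower. The block gave 6 lower and 8 higher related genes. A minimum count of 30 left Gpx4, Gpx3, Mgst3, Hmox1 and Slc30a3 untested. Depth limits Mt3 and Gpx4, with 1 to 14 and 8 to 32 counts per library.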
